A study of Homo sapiens with 8 samples.

Results

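The histone genes of A549 cells, the replication-dependent genes that make the histones of new chromatin and the replacement variants that are made through the cell cycle, are described here. Members were taken from the gene symbols of the table: the HIST1, HIST2, HIST3 and HIST4 symbols and the older symbols of the variants (H1F, H2AF and H3F3). The rule found 45 rows with 44 symbols among 13841 rows with 13751 symbols. Of these, 34 rows (33 genes) were replication-dependent, with 4 rows for H1, 12 for H2A, 9 for H2B, 5 for H3 and 4 for H4. A further 8 rows were replacement variants and 3 were pseudogenes.

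A549 is an established human lung adenocarcinoma line of epithelial type. All cells of both groups were cyclically stretched for 24 h, at 15% elongation and 15 cycles per min, and kept in culture for 6 days. They were then sorted on β-galactosidase (β-gal) staining into positive cells, which the submitters' titles call senescent (libraries positive 1, 3, 4 and 5), and negative cells, called non-senescent (libraries negative 2, 6, 7 and 8). Unstretched cells were not analysed here, so the comparison is between stained and unstained cells after the same stretch. Separate cultures are not mentioned in the labels for the libraries of a group. Each p-value thus rests on how far these libraries spread, which may be technical. In bulk RNA, fewer cells of a type and less RNA per cell cannot be told apart.

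Replication-dependent histone genes lie in clusters and are transcribed mainly in S phase, when new DNA is packed into nucleosomes. Their mRNAs lack introns and mostly end in a conserved stem-loop, bound by the protein SLBP, in place of a poly(A) tail. Replacement variants such as H2A.Z and H3.3 come from genes outside these clusters, mostly with polyadenylated mRNAs, and enter chromatin outside replication as well.

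The stem-loop, searched for by its known motif in GENCODE 29 transcripts on GRCh38, was found in an annotated transcript of 19 of the 33 replication-dependent genes and 1 of the 8 variants, H2AFX. Of all 58721 annotated genes, 67 (0.114%) held it. For genes without a match, the result says only that these letters are not in the annotated transcript. The sites are shown for members whose values are given below, written 5′ to 3′ with T for U. Capitals mark the stem-loop of 16 bases and lower case the 5 flanking bases on each side.
HIST2H2BE: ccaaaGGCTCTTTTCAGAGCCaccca
HIST1H4H: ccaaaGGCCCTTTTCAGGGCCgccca
HIST1H2BF: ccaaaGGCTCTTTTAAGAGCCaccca
HIST1H2BD: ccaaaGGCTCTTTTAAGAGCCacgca
HIST1H2AI: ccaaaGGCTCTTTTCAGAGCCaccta
H2AFX: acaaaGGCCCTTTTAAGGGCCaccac
The sites of HIST1H4H and H2AFX share the stem GGCCC, whereas the other 4 have GGCTC. H2AFX, which encodes H2A.X, the variant phosphorylated at DNA breaks, is known to make both a stem-loop mRNA and a polyadenylated mRNA. Annotated transcripts also run on past the stem-loop in other printed members, by 1729 bases in HIST2H2BE, 732 in HIST1H2BF and 18 to 1655 in HIST1H4H. In H2AFX the stretch after it is 821 and 1044 bases, and in HIST1H2BD and HIST1H2AI 39 bases.

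Promoters from RefSeq (GRCh38.p14, 250 bases before to 50 after the start of the gene) matched 37 of the 44 genes, 30 of them replication-dependent and 7 variants. The octamer ATTTGCAT, the TATA box TATAAA and the CCAAT box CCAAT were searched for on both strands, and in none of the members' 41 windows did matches to different motifs overlap (0 windows). The octamer was present in 13 of 30 replication-dependent promoters (43.3%), against 2.19% of 27305 genes. It was found in 7 of 10 H2A and 6 of 9 H2B promoters and in 0 of the H1, H3 and H4 promoters. Some divergent H2A and H2B neighbours have overlapping windows, so these promoters do not all hold separate sites. The same octamer is counted for HIST2H2AC and HIST2H2BE, for HIST1H2AC and HIST1H2BC, and for HIST1H2AD and HIST1H2BF. For the first pair it lies 197 bases before the start of HIST2H2AC and 46 before that of HIST2H2BE. A TATA box was present in 21 of 30 (70.0%, against 14.0% of all genes) and a CCAAT box in 27 of 30 (90.0%, against 39.7%). These counts take a match anywhere in the window. The only TATA match of HIST4H4 lies 250 bases before the start. That of HIST1H2BC lies 220 bases before it on the opposite strand, where it is the TATA box of HIST1H2AC. Among the 7 variants, the octamer was present in H3F3B alone, a TATA box in 4 and a CCAAT box in 6. The promoters below are of the member with the smallest p-value, of the H1 gene with the most counts and of that variant. All are on the minus strand, with the motifs in capitals.
HIST2H2BE, chr1:149886633-149886932: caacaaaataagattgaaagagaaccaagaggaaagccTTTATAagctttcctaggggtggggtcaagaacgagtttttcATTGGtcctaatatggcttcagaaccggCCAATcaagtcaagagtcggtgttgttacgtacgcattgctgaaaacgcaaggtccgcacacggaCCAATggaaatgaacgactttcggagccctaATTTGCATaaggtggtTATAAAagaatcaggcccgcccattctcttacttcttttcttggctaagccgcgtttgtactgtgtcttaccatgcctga
HIST1H1D, chr6:26234938-26235237: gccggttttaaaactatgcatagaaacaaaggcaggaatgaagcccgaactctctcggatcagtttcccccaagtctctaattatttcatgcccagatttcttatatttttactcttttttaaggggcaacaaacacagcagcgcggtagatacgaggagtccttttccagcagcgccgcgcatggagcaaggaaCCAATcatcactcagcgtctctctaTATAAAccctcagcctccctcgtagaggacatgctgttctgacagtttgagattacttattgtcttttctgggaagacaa
H3F3B, chr17:75779730-75780029: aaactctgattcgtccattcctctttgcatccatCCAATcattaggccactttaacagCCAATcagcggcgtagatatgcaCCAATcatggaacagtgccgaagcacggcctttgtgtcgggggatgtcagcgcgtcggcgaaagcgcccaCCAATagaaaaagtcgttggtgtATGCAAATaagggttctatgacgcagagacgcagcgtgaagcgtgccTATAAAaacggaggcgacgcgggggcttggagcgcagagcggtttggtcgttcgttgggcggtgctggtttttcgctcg
In HIST2H2BE the octamer lies 46 bases and a TATA box 30 bases before the start, and in HIST1H1D a TATA box lies 30 bases before it. The HIST2H2BE window overlaps that of HIST2H2AC on the plus strand. The TTTATA printed in it is the TATA box 29 bases before the start of HIST2H2AC. In H3F3B the octamer is on the opposite strand, 76 bases before the start. These matches are descriptions of the sequence and not measured binding.

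The libraries held 5634961 to 7990839 counts. Levels are given as CPM, the counts of a gene relative to its library total, with totals scaled by trimmed means of M values (TMM). The kit counts amplicons, which do not scale with transcript length, so levels are compared between libraries and not between genes. Library negative 2 stood apart from the rest: its scaling factor was 0.86 against 0.96 to 1.07 in the other 7 libraries, and 29.4% of all tested rows were highest in it. The results are therefore also given without it. Of the A549 epithelial markers, 9 had rows, with sums of 5238 to 5722 CPM in positive and 6249 to 6949 CPM in negative libraries. These sums did not overlap, and AKR1B10, the marker with the highest level, made up much of them. Of the 9, 8 had a log2 fold change below 0, beside 51.9% of all tested rows, and 0 were at an edgeR unadjusted p under 0.05. AKR1B10 did not overlap between the groups (log2 fold change -0.34), while KRT7 (-0.04), EPCAM (-0.09) and CLDN4 (0.46) did. The part of these markers in the histone differences was not tested. The 6 fibroblast markers summed to 19.4 to 20.5 CPM and 18.8 to 22.2 CPM. The 3 leukocyte markers (LYZ, CD68 and CD14) summed to 70.2 to 75.1 CPM and 57.0 to 75.5 CPM, and the 2 endothelial markers to at most 4.28 CPM. The other listed leukocyte and endothelial markers, PTPRC and PECAM1 among them, had no row under these symbols.

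Summed over all members, replication-dependent histone RNA was at 5271, 4878, 5106 and 6131 CPM in positive 1, 3, 4 and 5. In negative 2, 6, 7 and 8 it was at 15362, 5406, 6074 and 6462 CPM. Values of single genes are given below in the same order of libraries. Negative 2 was 2.84 times the median of the other 7 libraries, and the ranges of those 7 overlapped between the groups. The means were 5346 ± 547 CPM (SD, n = 4) in positive and 8326 ± 4711 CPM (SD, n = 4) in negative libraries, a log2 ratio of -0.64. Without negative 2 the negative mean was 5981 ± 534 CPM (SD, n = 3) and the log2 ratio -0.16. The replacement variants summed to 2545, 2052, 2075 and 1902 CPM in the positive and 2803, 2197, 2414 and 2357 CPM in the negative libraries, a log2 ratio of -0.19 with all libraries and -0.12 without negative 2. The ratio of replication-dependent to variant counts was 5.48 in negative 2 and 2.07 to 3.22 in the other 7 libraries, with the lowest value in positive 1.

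**Figure D1:**
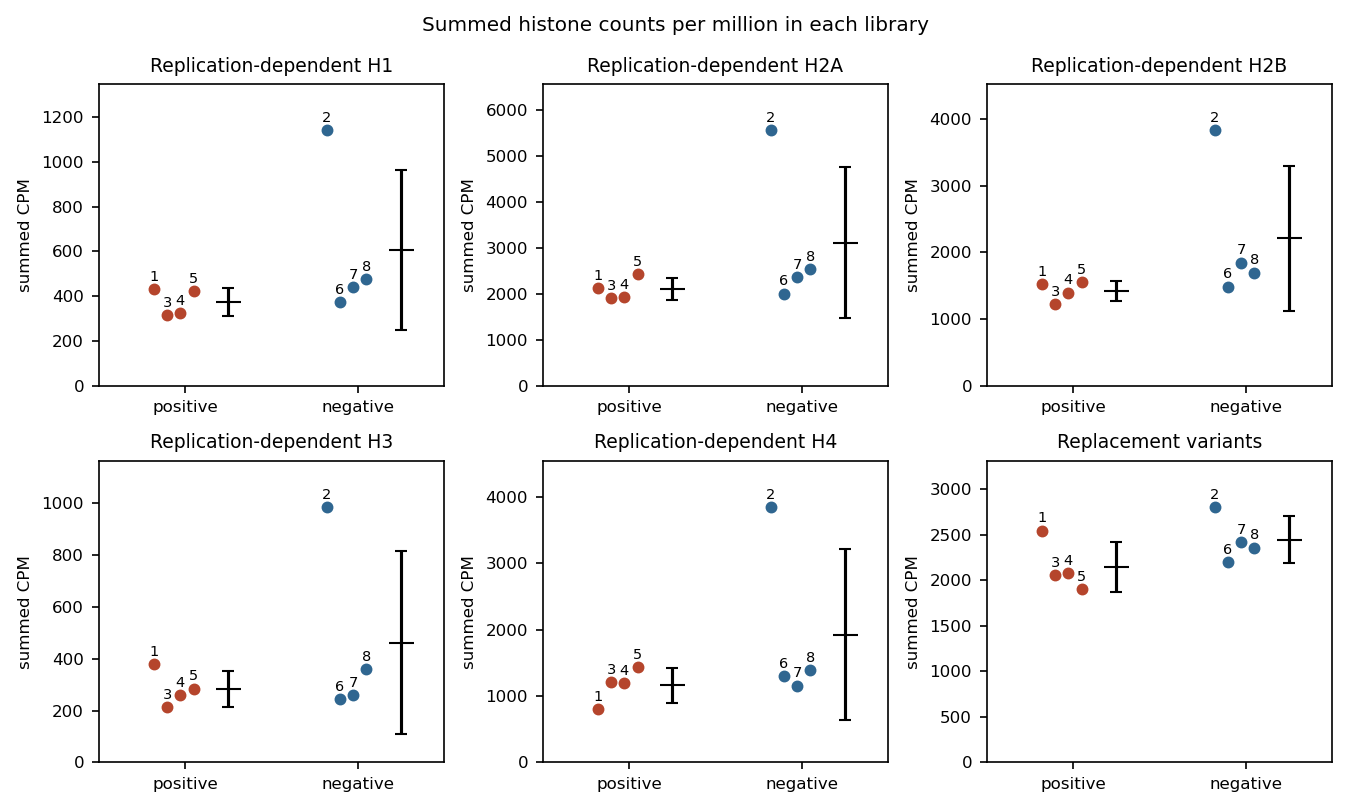
Summed TMM-scaled CPM (y axis, from 0) of each replication-dependent histone class and of the replacement variants, by group. Points are libraries with their numbers, and the bars at the right of each group are the mean and SD of 4. Negative 2 is the highest library in all 6 panels, at 2.503 to 3.81 times the median of the others for the replication-dependent classes and 1.28 times for the variants.

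All 5 replication-dependent classes were highest in negative 2. Its level was 2.71 times the median of the others for the linker histone H1, 2.61 for H2A and 2.503 for H2B. It was 3.81 times for H3 and 3.17 for H4, sums that rest mostly on 1 row each. In negative 2, HIST1H3J made up 955 of the 985 CPM of H3, and HIST1H4C 3388 of the 3850 CPM of H4. The other tested H3 rows were at 1.40 to 2.45 times the median of the others in negative 2. The 3 clusters with more than 1 row were also highest there, at 2.84 times the median of the others for HIST1 on chromosome 6, 2.84 for HIST2 and 2.12 for HIST3 on chromosome 1. Variant H1 was 1.10 times, variant H2A 1.74 times and variant H3 0.87 times the median of the others. Within the replication-dependent sum, H4 made up 15.2% in positive 1 and 19.0% to 25.1% in the other libraries. HIST1H4C, the H4 gene with the most counts, was at 657 CPM in positive 1 and at 984 CPM or more in each other library.

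After removal of low counts, 36 of the 45 rows were tested: 29 replication-dependent, 6 variant and 1 pseudogene. edgeR's quasi-likelihood test with Benjamini-Hochberg adjustment over 11351 rows called 0 rows (0%), so 0 of the 36, and the smallest adjusted p of a histone row was 0.310. limma voom also called 0 rows. DESeq2 called 52 rows (0.458%), 0 of them histone rows. At an unadjusted p under 0.05, edgeR placed 1631 rows: 6.85% of all tested rows lower and 7.52% higher in positive libraries. Of the 29 replication-dependent rows, 6 were below that p and lower (20.7%) and 0 were higher. Without negative 2 the count was 2 of 29 (6.90%), against 3.01% of all rows.

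In direction, 26 of 29 replication-dependent rows had a log2 fold change below 0 and their median was -0.52, beside 51.9% and -0.02 for all tested rows. Without negative 2, 21 of 29 were below 0 with a median of -0.11, and the median of all rows was 0.01. Non-overlapping groups, lower in positive libraries, were seen in 3 of 29 rows (10.3%) against 4.14% of all rows, and higher in 0 against 5% of all rows. Of the 6 tested variants, 0 were at an unadjusted p under 0.05. All 6 were below 0 with a median of -0.33, and 5 were below 0 with a median of -0.10 without negative 2. Scaling by library totals alone moved the median of all rows by 0.12, and relative to that median the replication-dependent rows stayed at -0.51 under both scalings.

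**Figure D2:**
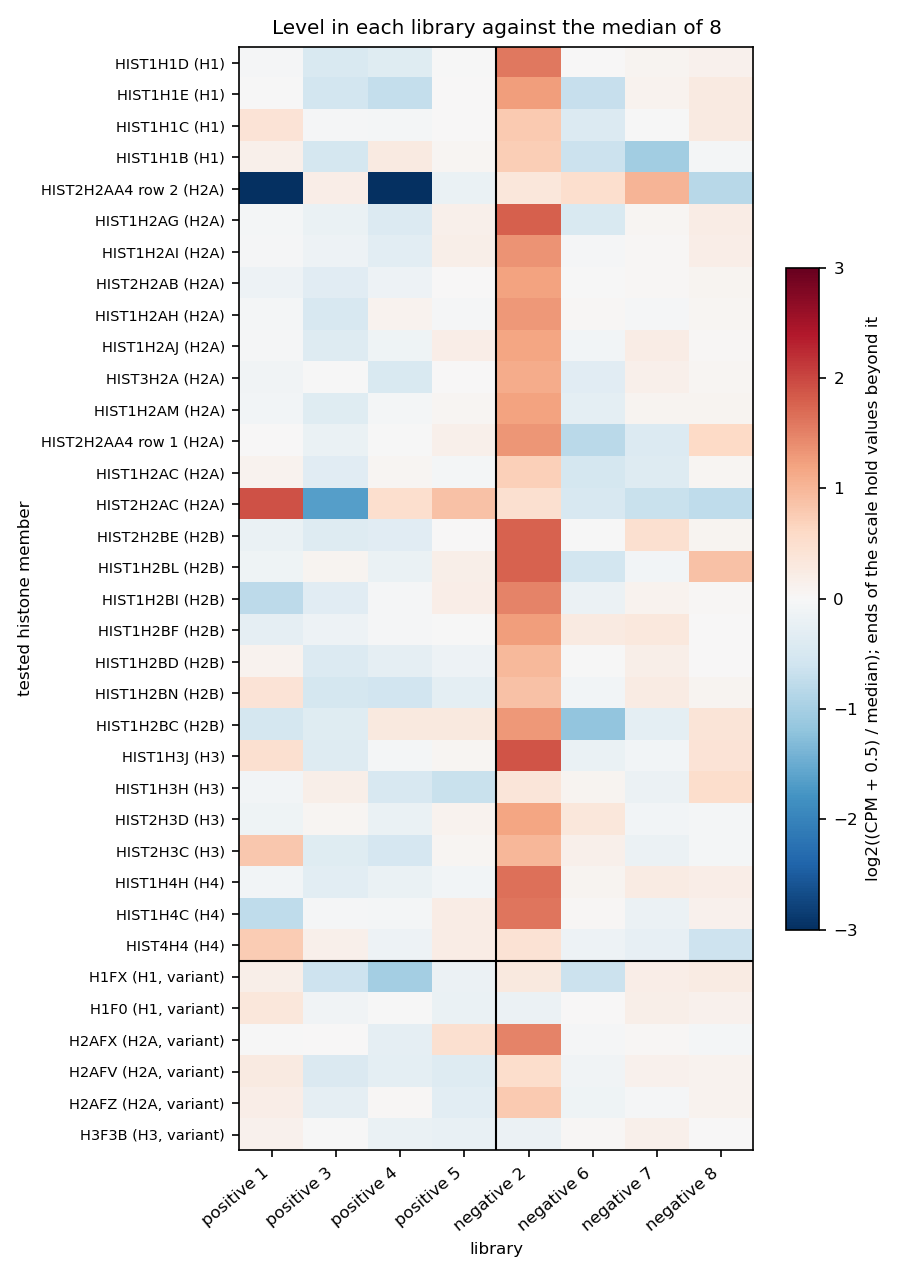
Level of each of 35 tested histone members (29 replication-dependent above the line, 6 variants below it) in each library, as log2 of CPM plus 0.5 against that row's median over the 8 libraries. Red is above and blue below the median; 25 of the 29 replication-dependent rows are highest in negative 2.

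Among the H1 genes, whose proteins bind the linker DNA between nucleosomes, HIST1H1D (H1.3) had the most counts. It lies at chr6:26234268-26234933 on the minus strand. HIST1H1D was at 267, 201, 213 and 274 CPM in positive and 829, 276, 292 and 302 CPM in negative 2, 6, 7 and 8. The groups did not overlap, although positive 5 and negative 6 were nearly level. Its log2 fold change was -0.83 (SE 0.33, edgeR adjusted p = 0.319), and -0.26 without negative 2 (95% interval -0.62 to 0.09). HIST1H1E and HIST1H1C had log2 fold changes of -0.69 and -0.14, and HIST1H1B, the H1.5 gene, 0.11. Without negative 2 they were -0.21, 0.13 and 0.62, so HIST1H1C changed sign.

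Of the H2A genes, 10 of 11 tested rows had a log2 fold change below 0, and 8 of 11 without negative 2. HIST1H2AI, the H2A row with the most counts, was at 507, 471, 421 and 586 CPM in positive and 1341, 506, 539.5 and 603 CPM in negative libraries. Apart from negative 2, the ranges overlapped, and the log2 fold change went from -0.59 (edgeR adjusted p = 0.362) to -0.13 without that library. HIST1H2AI shares 63.9% of its 31-base stretches with other genes, so how its reads were divided among near-identical copies is uncertain. HIST2H2AB, in the chromosome 1 cluster, was at 167, 146, 166 and 187 CPM in positive and 430.1, 184, 189 and 195 CPM in negative libraries. Positive 5 was inside the negative range, and the log2 fold change was -0.58 (SE 0.27, edgeR adjusted p = 0.345), or -0.17 without negative 2.

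Of the 7 tested H2B genes, 7 had a log2 fold change below 0, and 6 of 7 without negative 2. HIST2H2BE, whose promoter and stem-loop are printed above, had the smallest p of all histone rows. It was at 289, 254, 264 and 337 CPM in positive and 1137, 328, 462 and 355 CPM in negative libraries. Positive 5 lay above negative 6, so the groups overlapped there. The log2 fold change was -0.996 (SE 0.34, edgeR adjusted p = 0.310), and -0.40 without negative 2, with a 95% interval of -0.78 to -0.02. The gene lies at chr1:149884459-149886652.

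HIST1H2BF was at 154, 168, 181 and 186 CPM in positive and 446, 225, 231 and 186 CPM in negative libraries. The groups did not overlap, although positive 5 and negative 8 were nearly level. The log2 fold change was -0.66 (edgeR adjusted p = 0.312), and -0.30 without negative 2. HIST1H2BD, the H2B gene with the most counts, was at 701, 492, 543 and 589.7 CPM in positive and 1293, 646, 743 and 663 CPM in negative libraries. Positive 1 was above negative 6 and 8, and the log2 fold change of -0.52 (edgeR adjusted p = 0.339) became -0.22 without negative 2. HIST1H2BI was at 29.4, 39.9, 49.4 and 58.3 CPM in positive and 144, 45.02, 54.5 and 52.05 CPM in negative libraries, with a log2 fold change of -0.74 (edgeR adjusted p = 0.356), and -0.17 without negative 2. Its positive libraries differed among themselves by more than the negative libraries other than negative 2.

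Of H3, the 4 tested rows had log2 fold changes of -0.72 to -0.27. Without negative 2, 3 of 4 were below 0 with a median of -0.05, and HIST2H3C was at 0.13. HIST1H3J had the most counts, at 360.1, 197, 247 and 269.8 CPM in positive and 955, 227, 245 and 344 CPM in negative libraries. Positive 1 was higher than each negative library other than negative 2. The log2 fold change of -0.72 (edgeR adjusted p = 0.405) was -0.01 without negative 2. HIST1H3J overlaps HIST1H2AM on the same strand and shares 64.2% of its 31-base stretches with other genes, so the 2 genes cannot be fully told apart.

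Of H4, HIST1H4C was at 657, 1097, 1067 and 1301 CPM in positive and 3388, 1141, 984 and 1221 CPM in negative libraries. Apart from negative 2 the ranges overlapped, and positive 1 was the lowest of the 8. Its log2 fold change was -0.71 (edgeR adjusted p = 0.378), -0.10 without negative 2 and 0.070 without both positive 1 and negative 2. HIST1H4H (chr6:26277609-26285638) was at 136, 115, 125 and 136 CPM in positive and 457, 152, 170.0 and 165 CPM in negative libraries. Every positive library was below every negative library. The log2 fold change was -0.88 (SE 0.32, edgeR adjusted p = 0.312), and -0.33 without negative 2. HIST1H4C and HIST1H4H share 0% and 1.08% of their 31-base stretches with other genes. Of the 33 replication-dependent genes, 10 share more than 50%, and none of the 8 variants does (0 genes).

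The 3 replication-dependent rows with log2 fold changes above 0 were HIST1H1B, HIST4H4 (0.49) and HIST2H2AC (1.16, edgeR adjusted p = 0.374). Without negative 2 the last 2 were at 0.84 and 1.54. HIST1H1B and HIST4H4 had few counts, at 11 to 48 and 5 to 16 in a library. HIST2H2AC, named after its values were seen, lies at chr1:149886975-149887364 on the plus strand, next to HIST2H2BE on the minus strand. The promoter windows of these neighbours overlap. HIST2H2AC was at 113, 9.02, 41.8 and 54.9 CPM in positive and 41.2, 20.99, 18.4 and 17.3 CPM in negative libraries. Positive 3 was the lowest of the 8 libraries and positive 1 the highest, and 50.6% of its 31-base stretches occur in other genes.

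**Figure D3:**
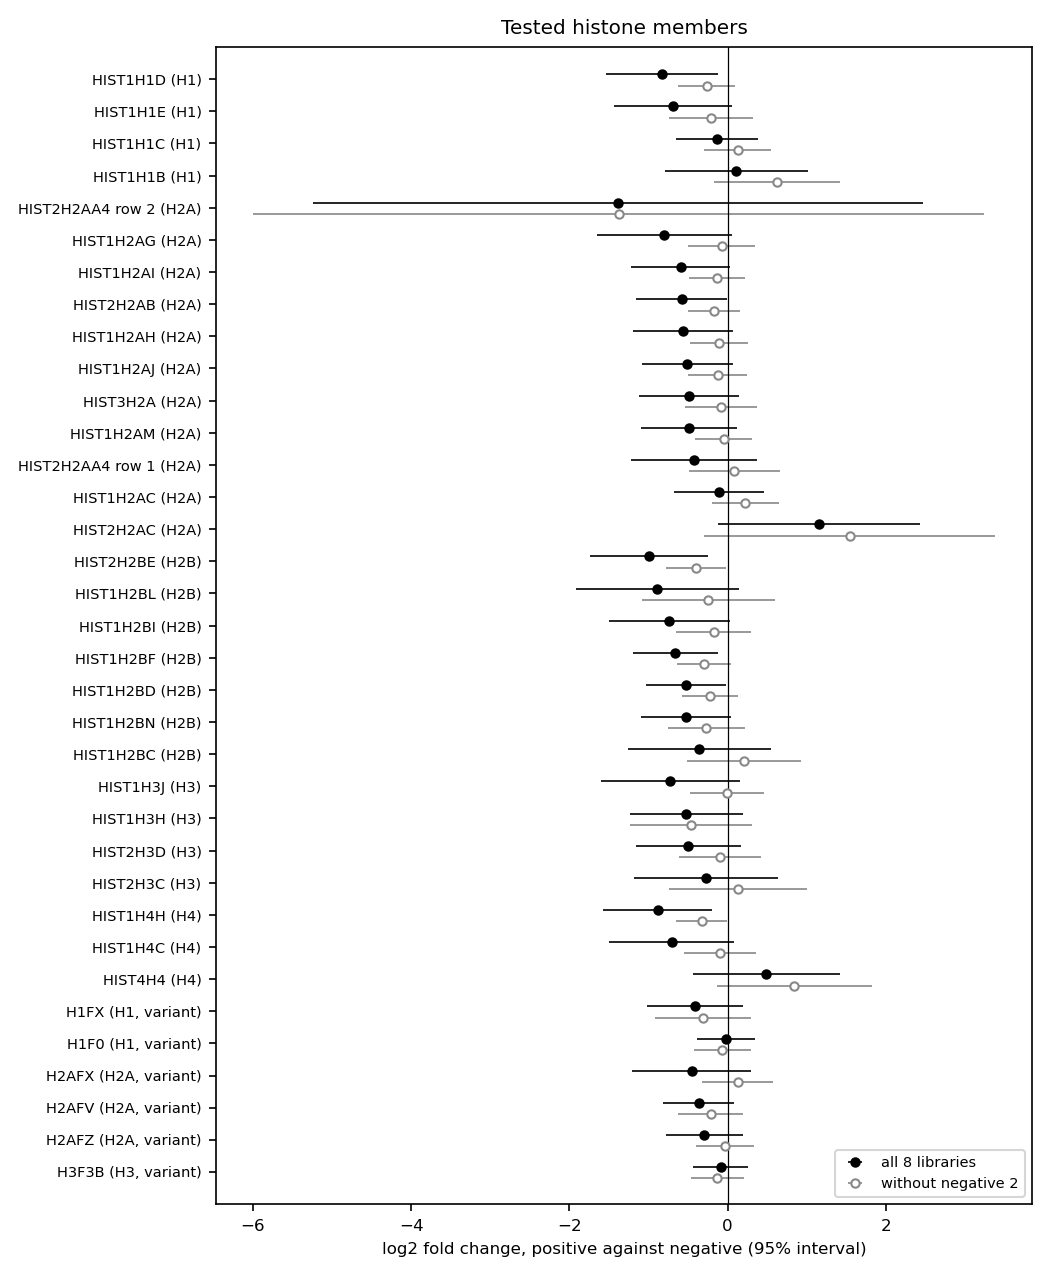
Log2 fold change, positive against negative (x axis), with its 95% interval from edgeR for 35 tested histone members, with all 8 libraries (filled) and without negative 2 (open). With all libraries 26 of 29 replication-dependent rows are below 0, and without negative 2 their median goes from -0.52 to -0.11.

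The tested replication-dependent rows were also described by the sequence features above. The 16 rows with an annotated stem-loop had a median log2 fold change of -0.52 (-0.18 without negative 2), and the 13 without it -0.56 (-0.10). HIST2H2AA4 entered the 16 with 2 rows. A row without a match may only have an annotated transcript that ends before the stem-loop, so this split partly follows the annotation. HIST1H2BI, for example, was annotated at 381 bases and HIST2H2AC at 390. The 10 rows with an octamer had a median of -0.55 and the 16 without it -0.52, and without negative 2 the order turned (-0.10 and -0.17). Rows whose 31-base stretches are at most 20% shared numbered 18, with a median of -0.54 (-0.14 without negative 2), and the other 11 had a median of -0.51 (-0.09).

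Of the replacement variants, 1 of 6 (H2AFX) was in negative 2 at 2 or more times the median of the other libraries, beside 21 of 29 replication-dependent rows and 6.43% of all tested rows. H2AFX was at 27.5, 27.6, 22.9 and 38.8 CPM in positive and 78.8, 26.9, 28.1 and 26.2 CPM in negative libraries. The libraries other than negative 2 lay between 22.9 and 38.8 CPM, and the log2 fold change of -0.45 (95% interval -1.21 to 0.30, edgeR adjusted p = 0.525) was 0.13 without negative 2.

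H2AFZ, which encodes the H2A.Z found at promoters, was at 857, 620.3, 767 and 596 CPM in positive and 1289, 677, 724 and 795 CPM in negative libraries. Its log2 fold change was -0.30 (edgeR adjusted p = 0.524), or -0.03 without negative 2. H2AFV, the second H2A.Z gene, was at 223, 136, 151 and 142 CPM in positive and 268, 171, 203 and 199.6 CPM in negative libraries. Positive 1 stood apart from the other positive libraries and above negative 6, 7 and 8. The log2 fold change was -0.37 (edgeR adjusted p = 0.407), -0.22 without negative 2 and -0.56 without positive 1.

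H3F3B, a gene for H3.3, the H3 of transcribed chromatin, was at 1241, 1130.4, 998 and 985 CPM in positive and 1009, 1178, 1279 and 1157 CPM in negative libraries. Negative 2 was not its highest library, and the log2 fold change was -0.09 (95% interval -0.43 to 0.26, edgeR adjusted p = 0.803), -0.13 without negative 2 and 0.026 when scaled by library totals alone. H1F0, the linker histone of non-dividing and differentiated cells, was at 143, 106, 112 and 99.1 CPM in positive and 101, 115, 128 and 123 CPM in negative libraries. The groups overlapped, and the log2 fold change was -0.02 (95% interval -0.39 to 0.35, edgeR adjusted p = 0.968), -0.07 without negative 2, and above 0 under other scalings (0.047 with the upper quartile and 0.093 with library totals alone).

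H1FX, another linker variant, was at 52.1, 30.2, 22.7 and 41.3 CPM in positive and 57.3, 29.3, 52.95 and 54.9 CPM in negative libraries. Negative 6 stood apart from the other negative libraries and was below positive 3. The log2 fold change was -0.41 (95% interval -1.02 to 0.19, edgeR adjusted p = 0.479), and -0.31 without negative 2.

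The 9 untested rows had few counts. Of the variants these were H3F3A, the second gene for H3.3, at 0 to 7 counts in a library, and H2AFJ at 1 to 6. How the panel and the counting treat these genes is not known from the sources used here, so such low counts do not show that the genes are silent. The replication-dependent rows were HIST1H2AD (2 to 10), HIST2H2BF (0 to 7), HIST1H2BG (0 to 13), HIST3H3 (0 to 16) and HIST1H4J (0 to 45). The pseudogenes H2AFZP3 and HIST1H3PS1 had at most 6 and 4 counts, and the tested pseudogene HIST2H2BC had a log2 fold change of -0.09.

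Genes that act on histone genes were taken from lists of their roles. Of 6 tested transcription regulators, 0 were lower and 1 was higher in positive libraries at an unadjusted p under 0.05, beside 6.85% and 7.52% of all tested rows (median -0.17, and -0.13 without negative 2). That gene was HINFP, an activator of H4 genes, at 55.1, 40.1, 41.04 and 37.8 CPM in positive and 29.7, 31.5, 32.3 and 37.2 CPM in negative libraries (log2 fold change 0.41, 0.38 without negative 2, edgeR adjusted p = 0.339). The groups did not overlap, with the highest negative library, negative 8, just below the lowest positive one. CCNE1 and CDK2, the cyclin E kinase that acts on NPAT, had log2 fold changes of -0.71 and -0.55 (-0.13 and -0.17 without negative 2). NPAT, the coactivator of replication-dependent genes, had a log2 fold change of -0.12 (-0.11 without negative 2).

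Of 16 tested genes of histone RNA processing and decay, 2 were higher and 0 lower at that p, beside 7.52% and 6.85% of all tested rows. Their median was -0.01, and 0.13 without negative 2. LSM11, a U7 snRNP protein needed for cutting the 3′ end, was at 50.4, 40.2, 32.5 and 36.05 CPM in positive and 18.9, 26.9, 25.2 and 32.5 CPM in negative libraries. Its lowest level was in negative 2, and the log2 fold change was 0.62 (edgeR adjusted p = 0.312), or 0.51 without negative 2. ERI1, the exonuclease that trims and degrades histone mRNA, had a log2 fold change of 0.82 (edgeR adjusted p = 0.312), and CPSF3, the nuclease that makes the cut, -0.54. Without negative 2 they were at 0.63 and -0.14. SLBP was at 71.6, 58.1, 49.2 and 44.8 CPM in positive and 88.7, 61.9, 50.02 and 43.6 CPM in negative libraries (log2 fold change -0.13, edgeR adjusted p = 0.804). It was highest in negative 2, the groups overlapped, and the log2 fold change changed sign to 0.12 without that library.

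Of 25 tested histone chaperones and their partners, 2 were lower and 0 higher at that p, a share near the 6.85% of all tested rows that were lower. Their median was -0.22 (-0.07 without negative 2). They were RBBP4, a subunit of the CAF-1 assembly factor (log2 fold change -0.59, edgeR adjusted p = 0.312), and VPS72, which binds H2A.Z (log2 fold change -0.34, edgeR adjusted p = 0.324). Without negative 2 they were at -0.40 and -0.36. VPS72 was at 67.1, 61.4, 66.9 and 62.5 CPM in positive and 75.5, 83.9, 79.3 and 87.98 CPM in negative libraries, with no overlap and with negative 2 the lowest of the negative libraries. SUPT16H, a subunit of the FACT chaperone, had a log2 fold change of -0.38 (-0.22 without negative 2).

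Of 21 tested S-phase genes, 18 had a log2 fold change below 0, beside 51.9% of all tested rows, and 4 were lower and 0 higher at that p, beside 6.85% and 7.52%. The median was -0.43 with all libraries and 0.02 without negative 2. The replication genes MCM4 and GINS1 and the nucleotide enzyme TYMS had log2 fold changes of -0.96, -1.12 and -0.59 (edgeR adjusted p = 0.319, 0.319 and 0.312), and -0.26, -0.30 and -0.43 without negative 2. The fourth was MCM2, with a log2 fold change of -1.41, and -0.29 without negative 2. PCNA, the sliding clamp of DNA replication, was at 498, 369.9, 361 and 459.8 CPM in positive and 339, 504, 322 and 427 CPM in negative libraries. It was not highest in negative 2, and its log2 fold change was 0.09 (0.03 without that library).

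The summed level of the S-phase list was 1786, 1166, 1236 and 1442 CPM in positive and 2886, 1490, 1407 and 1500 CPM in negative libraries. Negative 2 was the highest library in both sums. Positive 1 was the second highest in S-phase genes but the sixth highest in replication-dependent histones. The part of S-phase content in the histone difference was not tested.

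**Figure D4:**
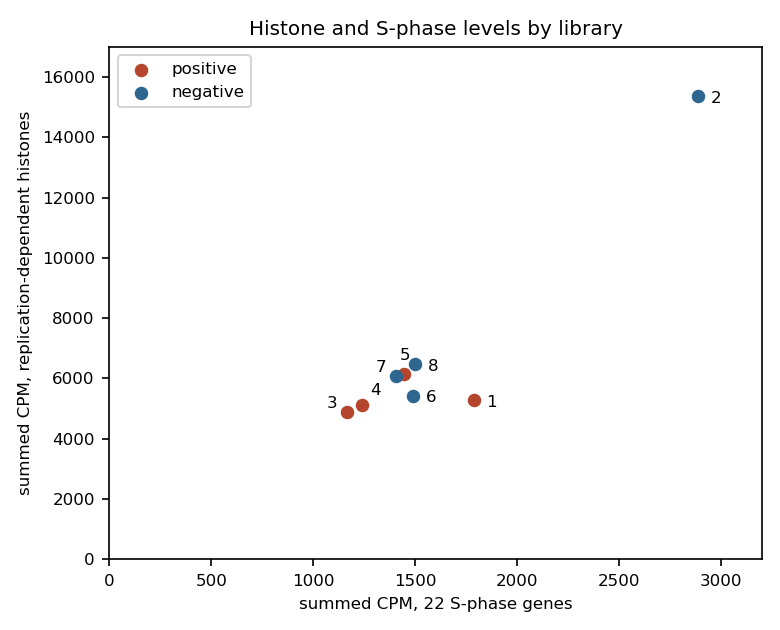
Summed TMM-scaled CPM of replication-dependent histones (y axis) against that of 22 S-phase genes (x axis), 1 point per library with its number, both axes from 0. Negative 2 lies at 2886 and 15362 CPM, and the other 7 libraries between 1166 and 1786 CPM on the x axis and 4878 and 6462 CPM on the y axis.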

How the data were processed

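RNA of 8 A549 libraries was measured with an amplicon kit (Ion AmpliSeq, per the labels). The deposited table holds the authors' estimated counts per gene, made with fastp 0.20.1 and Salmon 1.9 on GRCh38, per the submitters' processing notes. The sources used here do not give the annotation behind it or any use of strand. The deposited values were whole numbers, so rounding changed nothing. Columns were matched to libraries by the numbers in their titles.

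Rows passing filterByExpr (minimum count 10, minimum total 15) were kept (11351, with 2490 removed). They were scaled with TMM and tested with edgeR 4.0.16 (R 4.3.3), robust quasi-likelihood, positive against negative, with Benjamini-Hochberg adjustment over all rows. The script was tested on simulated data. Alternatives were other scalings, filters of 0 and 50 counts, DESeq2 1.42.0, limma 3.58.1 (voom with library weights), summed rows of 1 symbol, and each library left out.

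Members and gene lists were chosen with earlier results of these data known. Genes given with each library's value were the tested variants, the tested member with the most counts in each class and the 8 members of smallest p. From each other list, the 3 genes of smallest p, SLBP, NPAT and PCNA are named. Gene positions are from GENCODE 29 (GRCh38), and shared sequence is the share of 31-base stretches of the longest transcript found in other genes.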

Additional observations from a re-analysis of the deposited data

Results flagged for a closer look

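In 18 of 46 groups of 4 libraries that were looked at, the highest or lowest library lay far from the others for the size of the group. The measure is the gap to the nearest other library over the whole range of the group. By the criterion used, chance gives such a library in about 5% of groups of normally distributed values. The groups are not independent, since members share libraries and the sums hold the same genes. Some of the single genes were also chosen for a small p, so the 18 of 46 cannot be held against the 5%.

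In 16 of the 18 the library was negative 2. Its gap was 0.894 of the range for the summed replication-dependent histones, 0.866 for H1, 0.849 for H2A, 0.845 for H2B, 0.844 for H3 and 0.914 for H4. Among single genes it was 0.965 for H2AFX, 0.954 for HIST1H1D, 0.884 for HIST1H2AI, 0.850 for HIST1H2BD and 0.839 for HIST1H3J. It was 0.901 for HIST1H4C, 0.834 for HIST2H2BE, 0.943 for HIST1H4H, 0.955 for HIST2H2AB and 0.904 for HIST1H2BI. In the other 2 groups, positive 1 was high for H2AFV (0.832) and negative 6 was low for H1FX (0.845).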

How the results depend on the processing

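Of 288 pairs of a named gene and an alternative (16 genes, 18 alternatives), 275 kept their direction and their side of the threshold, and 13 changed direction. H1F0 had a log2 fold change of 0.047 with upper quartile scaling, 0.093 with library totals alone and 0.032 with a minimum count of 50. Leaving out each library gave -0.14 to 0.047, and without both positive 1 and negative 2 it was -0.18. H3F3B was at 0.026 with library totals alone. H2AFX was at 0.0078 with limma voom, 0.13 without negative 2 (-0.62 to 0.13 over the libraries left out) and 0.16 without both positive 1 and negative 2. HIST1H4C was at 0.070 without both (-0.90 to -0.098 over the libraries left out). The cause was not tested.

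DESeq2 called 52 genes where edgeR called 0, and leaving out each library gave 0 to 1. The number of histone members at an unadjusted p under 0.05 was 6, and 2 to 19 over the libraries left out: 2 without negative 2, 3 without positive 4, 13 without negative 7 and 19 without negative 6. Of replication-dependent rows alone, 2, 3, 13 and 18 were lower at that p in these settings, against 3.01%, 3.54%, 5.03% and 7.95% of all rows. The median log2 fold change of replication-dependent rows was -0.68 to -0.11 over the libraries left out, the latter without negative 2, and -0.27 with voom. The log2 ratio of their summed CPM was -0.80 to -0.15 over the libraries left out, with scaling repeated after removal (without negative 2, -0.15 against -0.16 on the scaling of all 8), and -0.13 without both positive 1 and negative 2. Among rows at an unadjusted p under 0.05, 47.6% were lower in positive libraries with TMM, 30.8% with upper quartile scaling and 21.8% with library totals alone. No paired analysis was possible because the labels do not say which libraries, if any, came from the same culture. Counts near 0 left 9 histone rows untested, and with 4 libraries a group the plotted 95% intervals limit what could be seen.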

Other observations

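HIST2H2AA4, an H2A gene with a near-identical neighbouring copy on chromosome 1, had 2 rows in the table. The first was at 369, 321, 364 and 409 CPM in positive and 922, 209.5, 277 and 557 CPM in negative libraries, with a log2 fold change of -0.43, and 0.09 without negative 2. The second was listed at 0 in positive 1 and positive 4 and at 82.4 to 296 CPM in the other 6. Its log2 fold change was -1.38 (SE 1.61), and also -1.38 (SE 1.82) without negative 2. Summed, the gene was at 368, 488, 364 and 538 CPM in positive and 1107, 418, 574 and 639 CPM in negative libraries. The log2 fold change of the sum was -0.64 (SE 0.27, edgeR adjusted p = 0.321). Positive 3 and positive 5 were above negative 6, so the groups overlapped. With rows of 1 symbol summed, 7 of 28 replication-dependent rows were lower at an edgeR unadjusted p under 0.05, against 6 of 29 before. Negative 2 was the highest of the 8. In all, 97.2% of its 31-base stretches occur in other genes.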
